A study of Mus musculus with 2 samples.

Results

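The 8 genes described here encode the main proteins of the actin filament cycle in microglia and 1 regulator of microtubules. They were taken by name from the 31053 genes listed in the deposited matrices, and all 8 were found. Actb and Actg1 encode the cytoplasmic actins, Tmsb4x and Tmsb10 encode beta-thymosins, Pfn1 encodes profilin, Cfl1 encodes cofilin, Coro1a encodes a coronin of blood-lineage cells and Stmn1 encodes stathmin. Microglia, the resident macrophages of the brain, came from the hypothalamus of young wild-type mice, and material from several mice was pooled. All mice had received plasma protein carrying a dye 20 hours earlier. A fluorescence sort then split the microglia into plasma-negative cells, without the dye, and plasma-positive cells, with it. Each sort gave 1 droplet library of 3′ transcript ends, so the comparison is between 2 libraries and has no replicate check. Strain, sex, exact age and the number of mice pooled were not given in the sources used here.

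Actin cycles between free monomers and filaments. Beta-thymosins hold monomers in reserve, profilin delivers them to growing filament ends, and cofilin severs old filaments. Coronin acts with cofilin and with the Arp2/3 complex, which starts branched filaments. In microglia this cycle underlies the movement of fine processes and the engulfment of particles. Stathmin binds tubulin dimers and destabilises microtubules, and its transcript is known to be abundant in dividing cells and in developing neurons. Transcription of actin genes is known to be driven by serum response factor, which binds a motif called the CArG box and whose cofactors are released when free actin monomers are used up.

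The CArG box links the actin genes to that circuit, so the members' promoters were searched for it in the RefSeq promoter table for GRCm38.p6. Promoters of 6 of the 8 members were found there, and Actb and Stmn1 had no entry. In the 250 bases before the transcription start, a CArG box was found for Actg1 alone among those 6 genes. The stretch below lies at chr11:120348496-120348605 on the minus strand of GRCm38.p6, and the capitals mark the box, at bases 90 to 81 before the start.
Actg1: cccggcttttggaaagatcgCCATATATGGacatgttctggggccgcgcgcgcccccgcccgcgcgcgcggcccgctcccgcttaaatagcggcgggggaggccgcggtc
Of all 32851 promoter windows of that length, 482 (1.47%) held the motif on either strand. A match is a description of the letters, and binding was not measured.

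A UMI, or unique molecular identifier, stands for 1 captured RNA molecule. The 9860 kept plasma-negative cells held 34534518 UMIs, and the 10362 kept plasma-positive cells held 41984977. Median depth was 3270.5 and 3753 UMIs per cell. At least 4 of 11 microglia markers were seen in 99.9% of cells in each library, and at least 4 markers of any of 9 other cell types were seen in 0 to 3 cells per library. Levels are given as CPM, a gene's UMIs per 1000000 UMIs of its library. Each transcript is counted near its 3′ end, so no length correction was made. Intervals are 95% and cover counting error only, and differences between sorts and library preparations are outside them.

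All 8 genes were detected in both libraries, and their levels spanned more than 2 orders of magnitude. Together they made up 1.66% of plasma-negative and 1.89% of plasma-positive UMIs, a ratio of 1.14 (1.13 to 1.14). Of the members, 7 had a ratio interval wholly above 1, and Coro1a was the exception. Such an interval was found for 19.9% of the 3540 genes at 50 CPM or more in at least 1 library, and for 40.6% of the 763 genes at 200 CPM or more. Stmn1 alone was higher by 25% or more (1 of 8 members, against 0.367% of the 3540 genes), and 0 members were lower by that factor (against 0.169%). Stmn1 reached 50 CPM in the plasma-positive library only. At a minimum of 10 CPM, which it passed in both libraries, 0.934% of genes were higher by 25% or more. At the smaller size of 1.1-fold, 7 of 8 members were higher and 0 were lower, against 7.18% and 11.5% of those genes.

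**Figure D1:**
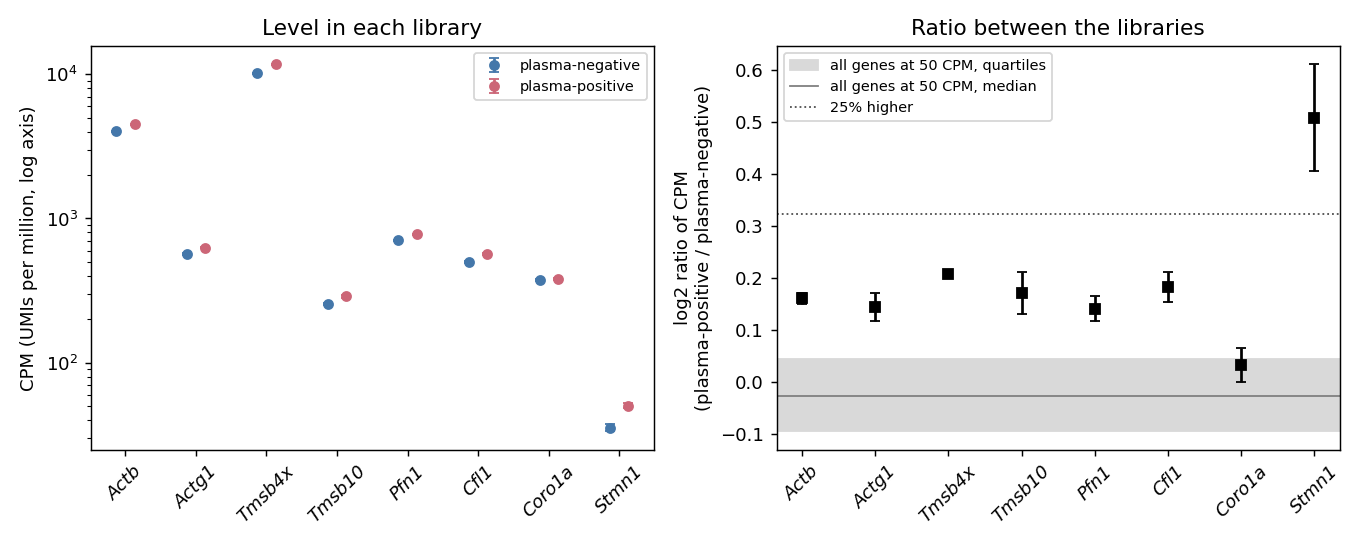
Left, CPM of each gene (log axis) in the plasma-negative and plasma-positive library, with 95% counting intervals that are mostly smaller than the points. Right, log2 ratio of plasma-positive to plasma-negative CPM with its 95% counting interval, beside the median and quartiles of the 3540 genes at 50 CPM or more; Coro1a lies among those quartiles, 6 genes lie between 0.14 and 0.21, and Stmn1 lies at 0.51, above the dotted line at 25% higher.

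Actb, which encodes beta-actin (chromosome 5, 142903115 to 142906754, minus strand, GRCm38), was at 4013 CPM in the plasma-negative library. It was at 4485 CPM in the plasma-positive library, a log2 ratio of 0.16 (0.15 to 0.17). Actg1, which encodes gamma-actin (chromosome 11, 120345690 to 120348542, minus strand), was at 569 and 629 CPM, a log2 ratio of 0.14 (0.12 to 0.17). Both actins were thus higher in the plasma-positive library by a similar factor. Actb held 87.6% (87.4% to 87.7%) of the UMIs of the pair in the plasma-negative and 87.7% (87.6% to 87.8%) in the plasma-positive library. Actins of muscle were at or near 0: Acta2 had 3 and 1 UMIs, Acta1 had 0 and 1, and Actc1 and Actg2 had 0 in both libraries. A count of 0 allows up to 3 UMIs.

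Tmsb4x, which encodes thymosin beta-4 (chromosome X, 167207093 to 167209315, minus strand), had the highest level of the 8 genes. It was at 10113 CPM in plasma-negative and 11677 CPM in plasma-positive cells, a log2 ratio of 0.21 (0.20 to 0.21). Tmsb10, which encodes thymosin beta-10 (chromosome 6, 72957347 to 72958748, minus strand), was at 256 and 288 CPM, a log2 ratio of 0.17 (0.13 to 0.21). The interval of Tmsb10 contains the ratio of Tmsb4x. Tmsb4x held 97.5% and 97.6% of the UMIs of both thymosins. Other beta-thymosin genes were scarce. Tmsb15b1 had 119 and 225 UMIs (3.45 and 5.36 CPM, log2 ratio 0.64, 0.31 to 0.97), Tmsb15l had 73 and 88, Tmsb15b2 had 3 and 7, and Tmsb15a had 0 in both libraries.

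The genes for proteins that load or sever filaments differed by similar amounts. Pfn1 (chromosome 11, 70651850 to 70654644, minus strand) was at 704 CPM in the plasma-negative and 776 CPM in the plasma-positive library, a log2 ratio of 0.14 (0.12 to 0.16). Cfl1 (chromosome 19, 5490455 to 5495201, plus strand) was at 501 and 569 CPM, a log2 ratio of 0.18 (0.15 to 0.21). Pfn1 stood for 99.5% of the UMIs of Pfn1 and its paralogue Pfn2 in each library. The share of Cfl1 among Cfl1 and Cfl2, the muscle-type cofilin, was 87.2% (86.7% to 87.6%) in plasma-negative cells and 89.9% (89.5% to 90.2%) in plasma-positive cells. Cfl2 itself was at 73.9 and 64.0 CPM (log2 ratio -0.21, -0.29 to -0.13), opposite in direction to Cfl1. Dstn, which encodes destrin, a relative of cofilin with the same kind of activity, was higher like Cfl1, at 220 and 247 CPM (0.16, 0.12 to 0.21).

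Coro1a (chromosome 7, 126699773 to 126707787, minus strand) was the member closest to equality. Its level was 373 CPM in plasma-negative and 381 CPM in plasma-positive cells, a log2 ratio of 0.03 (-0.00 to 0.07). Its call depended on the setting. With each cell thinned to 1000 UMIs the log2 ratio was -0.00 (-0.07 to 0.07). The interval lay wholly above 0 under TMM scaling (0.07, 0.04 to 0.10), with mitochondrial and ribosomal protein genes left out of the total (0.05, 0.02 to 0.09), and, by a narrow margin, with the 8 members left out of the total, at no more than 5% mitochondrial UMIs or without mitotic cells. Its paralogue Coro1b was at 94.0 and 89.7 CPM.

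The order of the levels was the same in both libraries: Tmsb4x, Actb, Pfn1, Actg1, Cfl1, Coro1a, Tmsb10 and Stmn1. Counting intervals of neighbours in that order did not overlap in either library. The median log2 ratio of the 8 members was 0.17, and the median of the 3540 genes was -0.03 with quartiles of -0.09 and 0.04. Each of the 6 members from Actb to Cfl1 had a ratio above that of 93.1% to 98.2% of those genes, and Coro1a above 71.6%. Abundant genes were higher more often. Of the 763 genes at 200 CPM or more, 18.5% were higher by 1.1-fold and 50.3% at any size. The median over the 270 genes at 500 CPM or more was 0.06, with quartiles of -0.055 and 0.158. Among members at that level, Pfn1 (0.141) and Actg1 (0.144) lay between those quartiles and Actb (0.160) lay narrowly above them. Cfl1 (0.182) and Tmsb4x (0.207) lay further above.

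Other broad classes of transcript moved with the members. Cytosolic ribosomal protein genes took 9.04% of plasma-negative and 10.1% of plasma-positive UMIs, with a median log2 ratio of 0.16, and 82 of 82 of them at 50 CPM or more were higher. Mitochondrially encoded genes took 1.20% and 1.42%. Malat1, a nuclear long non-coding RNA, went the other way, from 6.57% to 5.41% of UMIs, a log2 ratio of -0.28. Their part in the members' ratios was not tested. The values within groups of cells alike in these measures are as follows.

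Cells of both libraries were ranked together and cut into 5 groups of equal size. Within groups alike in UMIs per cell, Tmsb4x was higher in plasma-positive cells in 5 of 5 groups, by log2 ratios of 0.15 to 0.22, and Actb by 0.11 to 0.15. Within groups alike in mitochondrial share, Tmsb4x was higher by 0.15 to 0.25 and Actb by 0.14 to 0.19. Within groups alike in ribosomal protein share, a ranking added after the data were seen, they were higher by 0.11 to 0.16 and by 0.07 to 0.17. All members but Coro1a were above 0 in every group of these 3 rankings. The intervals of the less abundant members were wider: within ribosomal protein groups that of Tmsb10 lay wholly above 0 in 1 of 5, and within depth groups that of Stmn1 did in 3 of 5.

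Within groups alike in Malat1 share, also added after the data were seen, the differences were smaller and did not keep their direction. From the group with the lowest Malat1 share to that with the highest, the log2 ratio of Tmsb4x was 0.12, 0.11, 0.06, 0.08 and -0.15. For Actb it was 0.08, 0.06, 0.03, 0.05 and -0.09. In the group with the highest share, of 2555 plasma-negative and 1489 plasma-positive cells, 7 members were lower in plasma-positive cells with intervals wholly below 0, from -0.09 for Actb to -0.23 for Cfl1. Coro1a was below 0 in 5 of 5 groups, with an interval below 0 in the last alone. Levels also differed between the groups: plasma-negative Tmsb4x was at 13022 CPM in the group with the lowest Malat1 share and 6951 CPM in that with the highest. A gene's share of UMIs and the share of Malat1 have the same total, so the ranking and the levels are not independent.

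**Figure D2:**
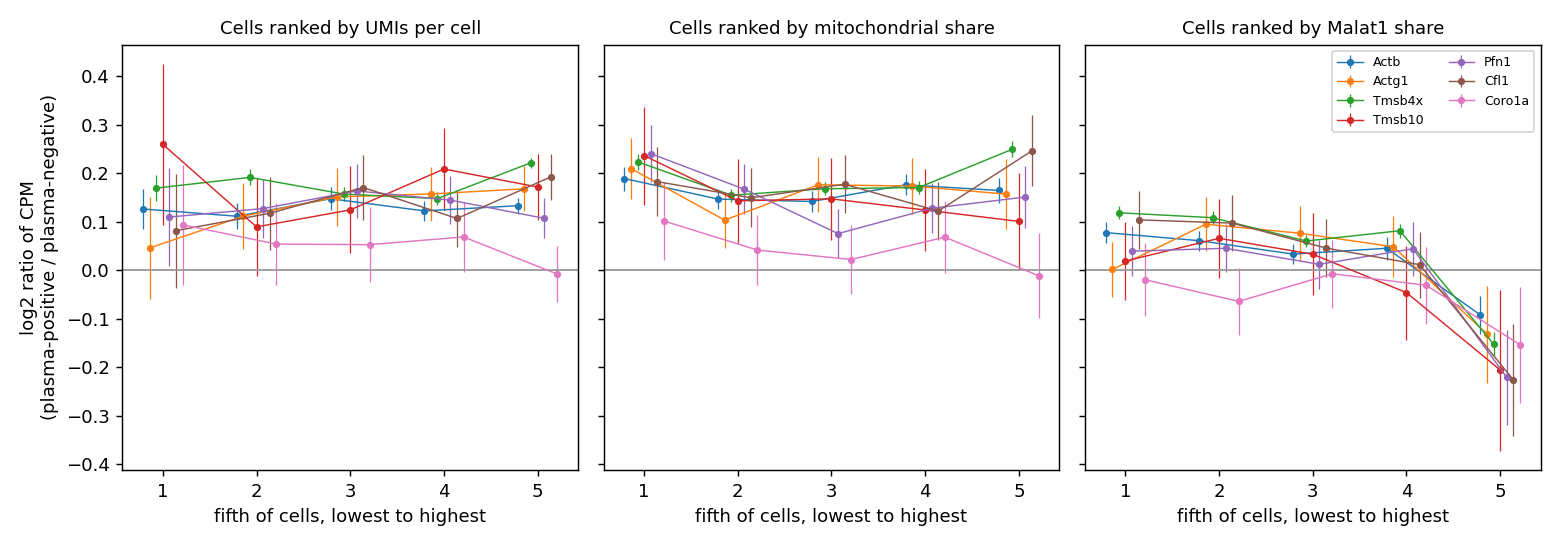
Log2 ratio of plasma-positive to plasma-negative CPM (points, with 95% counting intervals) for the 7 members other than Stmn1, within 5 equal groups of cells ranked by UMIs per cell, by mitochondrial share or by Malat1 share. Actb and Tmsb4x stay above 0 in each group of the left and middle panels, and all 7 genes lie below 0 in the group with the highest Malat1 share.

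Per cell, Tmsb4x and Actb were seen nearly everywhere. Tmsb4x had a UMI in 96.3% of cells in the plasma-negative library and in 97.6% in the plasma-positive library, and Actb in 95.3% and 96.6%. Depth differed between the libraries, so each cell was also thinned at random to 1000 UMIs, which left out 796 plasma-negative and 603 plasma-positive cells with fewer. In the thinned cells Tmsb4x was seen in 98.4% and 98.9%, with a median of 10 and 11 UMIs per cell. Its middle 90% of cells held 2 to 18 UMIs in the plasma-negative and 3 to 20 in the plasma-positive library. Actb had a median of 4 in both libraries. The distributions of both genes in the plasma-positive library lay slightly to the right of those in the plasma-negative library and overlapped them almost wholly.

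**Figure D3:**
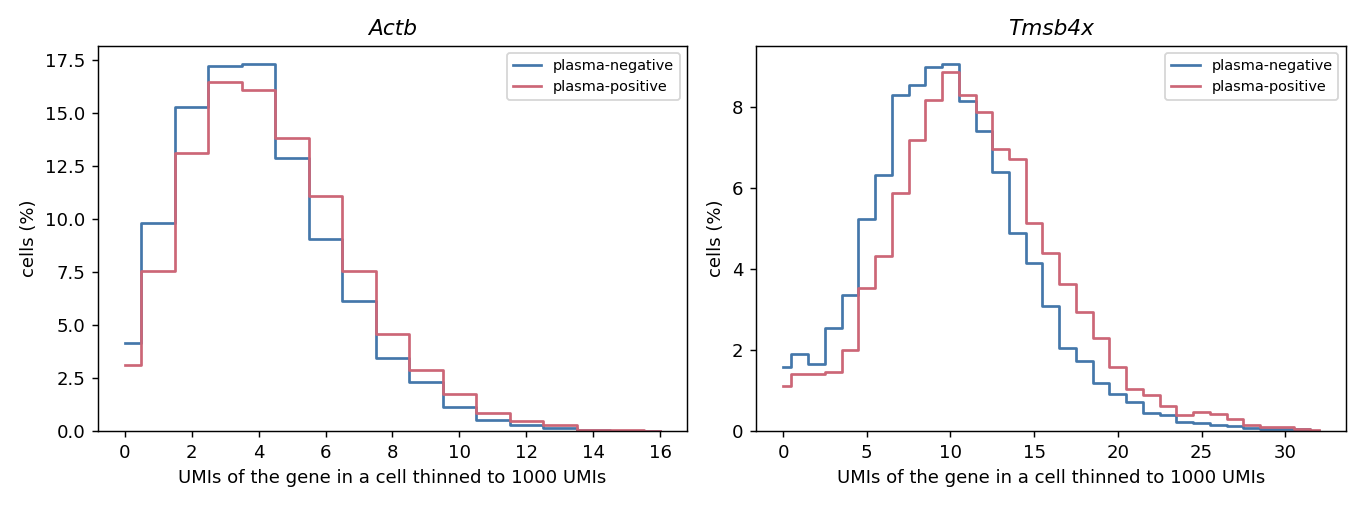
Percent of cells (vertical axis) with each number of Actb or Tmsb4x UMIs (horizontal axis) after thinning every cell to 1000 UMIs, for 9064 plasma-negative and 9759 plasma-positive cells. Most cells hold 2 to 8 Actb UMIs and 7 to 14 Tmsb4x UMIs, and the plasma-positive line lies slightly to the right.

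The spread of Tmsb4x over cells was wider than counting alone gives. Its Fano factor (variance over mean, which is 1 for pure counting) was 2.33 in the plasma-negative and 2.42 in the plasma-positive library, against medians of 1.63 and 1.71 over the 13 and 17 genes with a mean of 3 to 20 UMIs per thinned cell. Tmsb4x was at 0 in 1.59% and 1.13% of thinned cells. Actb, at 1.42 and 1.43, lay below the median of those genes. Coro1a was close to pure counting, at 1.04 and 1.02.

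Detection of the less abundant members followed their levels. Pfn1 had a UMI in 79.3% (plasma-negative) and 84.9% (plasma-positive) of cells before thinning, and in 48.9% and 52.0% after it. Actg1 was seen in 41.9% and 44.2% of thinned cells, Cfl1 in 37.8% and 40.8%, and Tmsb10 in 21.1% and 22.9%. For Coro1a the unthinned shares of 64.8% and 70.9% became 31.5% (30.5% to 32.4%) and 31.8% (30.9% to 32.8%), so at equal depth its detection differed by less than counting error. Both libraries hold microglia almost alone, so no cell type that should lack these genes gave a background share.

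The members' counts varied together over cells weakly, apart from Actb and Tmsb4x. Pearson's r of log-transformed thinned counts between this pair was 0.32 over 9064 plasma-negative and 0.31 over 9759 plasma-positive cells. Points share a library and a fixed total, so r is a description. The genes with the pattern most like Tmsb4x, by the mean r of both libraries over 3356 genes, were Cst3 (0.45), Rps29 (0.43), Fau (0.35), Rplp1 (0.35) and Fth1 (0.33). For Actb they were Tmsb4x, Cst3, Rps29, C1qb and Tyrobp, from 0.31 to 0.16. Tmsb4x was the most alike gene for Actg1, Tmsb10, Pfn1 and Cfl1, at 0.10 to 0.16. It was followed by Actb, Cst3, Ftl1 and Ubb for Actg1, by Fth1, Rps29, Fau and Cst3 for Tmsb10, and by Cst3, Actb, Rps29 and Fau for both Pfn1 and Cfl1. The highest r of Coro1a was 0.04, with Actb, ahead of C1qa, Ubb, Tmsb4x and Atp5e. Values this low in sparse counts are no finding.

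Stmn1 (chromosome 4, 134468320 to 134473843, plus strand) had the largest ratio of the 8 genes and the lowest level. It had 1226 UMIs (35.5 CPM) in the plasma-negative and 2119 UMIs (50.5 CPM) in the plasma-positive library, so it passed 50 CPM in the latter only. The ratio was 1.42 (1.32 to 1.53), a log2 ratio of 0.51 (0.41 to 0.61). Of the 3540 genes, a set that Stmn1 entered through the plasma-positive library alone, 0.226% had a ratio at least as high. Within the 5 groups alike in Malat1 share, from lowest to highest, its log2 ratio was 0.14, 0.34, 0.22, 0.06 and 0.40, with an interval wholly above 0 in 1 of 5. A Stmn1 UMI was seen in 8.98% (plasma-negative) and 12.4% (plasma-positive) of cells, and in 2.75% and 3.84% after thinning. Its Fano factor of 1.30 and 1.41 compares with a median of 1.03 and 1.02 over genes with a mean of 0.02 to 0.06 UMIs.

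Dividing cells held a disproportionate share of the Stmn1 molecules. Cells were called mitotic with UMIs of at least 3 of 25 mitosis genes such as Mki67, Top2a and Cdk1, a list without Stmn1. They numbered 20 (0.203%, 0.124% to 0.313%) in the plasma-negative and 60 (0.579%, 0.442% to 0.745%) in the plasma-positive library. Of all Stmn1 UMIs, these few cells held 16.6% (14.5% to 18.8%) in the plasma-negative library and 26.2% (24.3% to 28.1%) in the plasma-positive library. A Stmn1 UMI was seen in 20 of 20 and 56 of 60 mitotic cells, with a median of 9.5 and 9 UMIs per cell. Mitotic cells were deeper than the rest, at medians of 4854 and 5084.5 UMIs. At 2 or more mitosis genes after thinning, the share of cells was 0.188% and 0.471%.

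Without the mitotic cells, Stmn1 was at 29.7 CPM in the plasma-negative and 37.6 CPM in the plasma-positive library. The ratio was 1.26 (1.17 to 1.37), a log2 ratio of 0.34 (0.22 to 0.45). DNA replication cells, with UMIs of at least 5 of 20 replication genes such as Mcm2 and Pcna and not mitotic, numbered 47 (0.477%) and 141 (1.36%). Their Stmn1 level was 165 (119 to 222) and 159 (135 to 186) CPM, with overlapping intervals. They were deeper than the rest, at medians of 4703 and 5804 UMIs. At 3 or more replication genes after thinning, mitotic cells included, the share of cells was 0.298% and 0.584%. Without mitotic and replication cells, Stmn1 was at 28.7 and 34.6 CPM, a ratio of 1.21 (1.11 to 1.31), which is under the 25% rule. Of the 3540 genes, 0.311% and then 0.565% had a ratio at least that high in the same cells. Those genes were chosen at 50 CPM over all cells, and Stmn1 was below that minimum in both libraries here. The shares thus do not place it among genes of its own level.

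Among mitotic cells the order of the summed levels was the opposite. The 20 plasma-negative mitotic cells had Stmn1 at 1923 CPM (1667 to 2206). The 60 plasma-positive mitotic cells had it at 1544 CPM (1419 to 1678), a ratio of 0.80 (0.68 to 0.95). Single mitotic cells ranged from 237 to 4621 CPM in the plasma-negative and from 0 to 5066 CPM in the plasma-positive library, which is far wider than the gap between the sums. Plasma-positive cells thus had a larger proportion of mitotic cells and a higher level outside them, but not a higher level within them.

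Stmn1 stood far higher in cells with 3 or more mitosis genes than in those with fewer. Plasma-negative cells with 0 mitosis genes were at 29.4 CPM, those with 1 at 33.4 CPM and those with 2 at 69.3 CPM (22.5 to 162). Those with 3, 4 and 5 or more were at 1664, 1167 and 2128 CPM, over 2, 3 and 15 cells. Plasma-positive cells with 0, 1 and 2 mitosis genes were at 34.8, 61.0 and 174 CPM. Those with 3, 4 and 5 or more were at 794, 714 and 1768 CPM, over 10, 4 and 46 cells. As a fold, the step between 2 and 3 genes was the largest in both libraries. Among cells with 1 mitosis gene, the intervals of the 2 libraries did not overlap, at 25.5 to 43.0 and 52.5 to 70.5 CPM. Median depth also rose from 0 to 1 to 2 mitosis genes. It was 3250, 3781 and 4634.5 UMIs in plasma-negative cells and 3706, 4363.5 and 5892.5 UMIs in plasma-positive cells. At 3, 4 and 5 or more genes it kept no steady order. Plasma-negative medians there were 3005.5, 6831 and 4607 UMIs, the first over 2 cells. Plasma-positive medians were 5299, 3831.5 and 5101 UMIs. The part of depth in the Stmn1 levels was not tested.

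**Figure D4:**
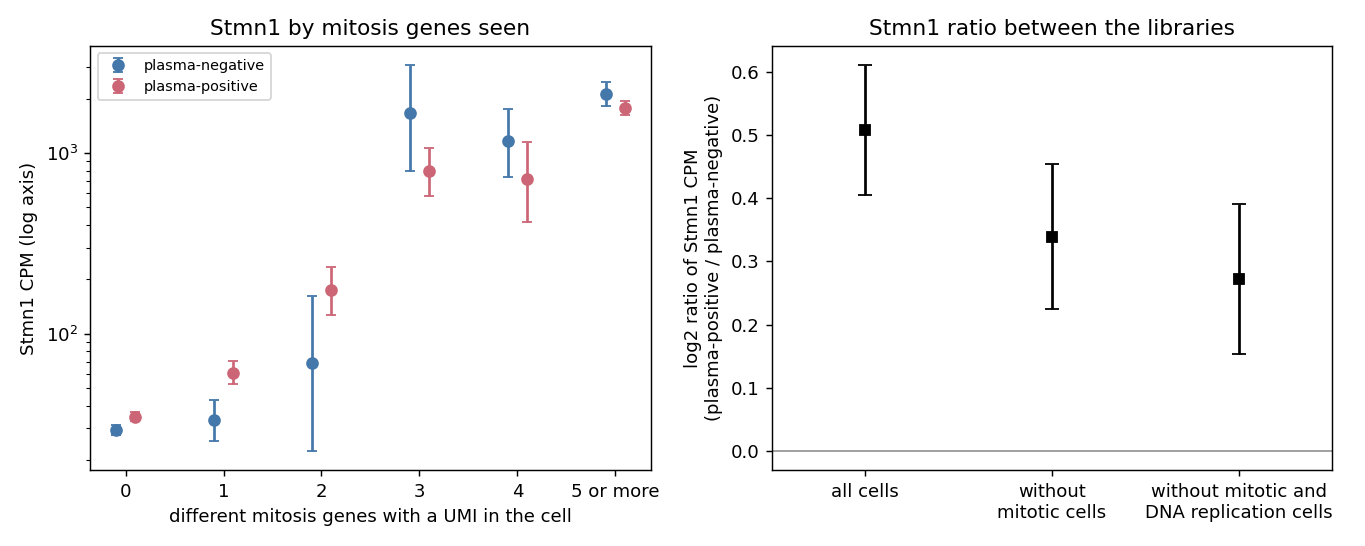
Left, Stmn1 CPM (log axis, with 95% counting intervals) in cells grouped by how many of 25 mitosis genes had a UMI; both libraries step up between 2 and 3 genes. Right, log2 ratio of plasma-positive to plasma-negative Stmn1 CPM over all cells (0.51), without mitotic cells (0.34) and without mitotic and DNA replication cells (0.27), each with an interval above 0.

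Cells with many Stmn1 molecules were mostly mitotic. Of cells with 6 or more Stmn1 UMIs, 15 of 17 (88.2%) in the plasma-negative and 39 of 44 (88.6%) in the plasma-positive library were mitotic. Cells with a single Stmn1 UMI held 61.2% and 47.6% of all Stmn1 UMIs, and 0 of 750 and 5 of 1009 of them were mitotic. The genes most like Stmn1 over cells were Hmgb2 (mean r 0.12), H2afz (0.06), Ppia, Ptma and Tmsb10. Hmgb2 and H2afz encode chromatin proteins known to be abundant in dividing cells. Without mitotic and replication cells, the highest r was 0.03, with Nudc, ahead of Rps12, Ftl1, Tmsb4x and Myl6.

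Neurons also express stathmin, so neuronal transcripts were counted beside it. Over all 11 neuron markers there were 702 plasma-negative and 888 plasma-positive UMIs (20.3 and 21.2 CPM). Most were of Elavl4, with 599 and 634 UMIs. For the other markers without Elavl4 and Rbfox3, a choice made after their values were seen, there were 75 UMIs in 58 plasma-negative cells and 218 in 168 plasma-positive cells. The neuronal stathmins Stmn2 and Stmn3 had 11 and 9 UMIs in the plasma-negative library and 40 and 37 in the plasma-positive library. With cells holding a UMI of those 9 markers left out, the log2 ratio of Stmn1 was 0.51 over all cells and 0.33 without mitotic cells. With cells holding a UMI of any of the 11 left out, it was 0.50 and 0.33. Both exclusions were added after the data were seen. Cells with a UMI of the 9 markers held 14 of 1226 plasma-negative and 54 of 2119 plasma-positive Stmn1 UMIs. Leaving them out could thus change the ratio little. A neuronal source of Stmn1 was not tested.

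Mitotic cells also differed in other members, most of all in Tmsb10. In the plasma-negative library Tmsb10 was at 1392 CPM in mitotic cells and 253 CPM in cells neither mitotic nor replicating, a ratio of 5.50 (4.64 to 6.47). In the plasma-positive library it was at 760 and 284 CPM, a ratio of 2.68 (2.37 to 3.02). The median mitotic cell was at 878 and 518 CPM, single cells ranged from 0 to 4351 and 6530 CPM, and 17 of 20 and 51 of 60 had a UMI. Of 3357 genes, 0.387% and 1.37% had a mitotic ratio at least as high as that of Tmsb10.

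Tmsb4x was 1.74-fold (1.66 to 1.82) and 1.34-fold (1.30 to 1.38) higher in mitotic cells, Cfl1 1.72-fold and 1.54-fold, Actg1 1.60-fold and 1.35-fold, and Pfn1 1.27-fold and 1.17-fold, all with intervals above 1. Of 3357 genes, 9.47% and 15.8% had a mitotic ratio at least as high as that of Tmsb4x. In thinned cells, with fewer UMIs, the interval of Pfn1 included equality in both libraries. So did that of Cfl1 in the plasma-negative and that of Actg1 in the plasma-positive library. Actb, at 1.07-fold (0.98 to 1.18) and 0.97-fold (0.93 to 1.02), and Coro1a, at 1.17-fold and 0.95-fold, had intervals that include 1. The interval of Actg1 lay above that of Actb in both libraries, but UMIs from the same cell are not independent. In thinned cells the log2 intervals of the 2 actins overlapped. They were -0.23 to 0.42 (Actb) and 0.08 to 1.46 (Actg1) in the plasma-negative library. In the plasma-positive library they were -0.37 to 0.02 and -0.20 to 0.69. A difference between the 2 actins in mitotic cells was thus not settled. Without thinning, the median log2 mitotic ratio over the 3357 genes was -0.12 and -0.09. Leaving mitotic cells out moved the ratio between the libraries little for members other than Stmn1: its log2 stayed at 0.21 for Tmsb4x and at 0.17 for Tmsb10.

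**Figure D5:**
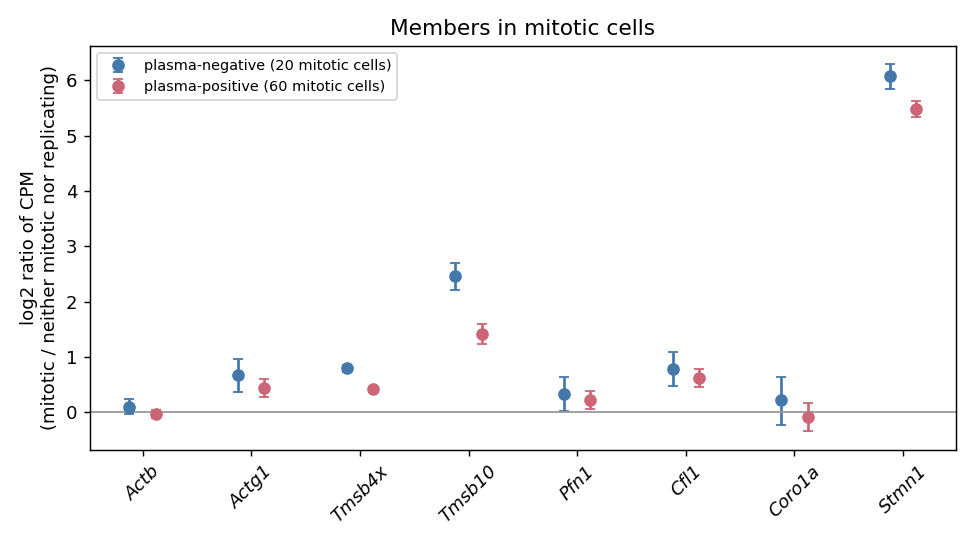
Log2 ratio of CPM in mitotic cells to CPM in cells neither mitotic nor replicating, per gene and library, with 95% counting intervals over 20 plasma-negative and 60 plasma-positive mitotic cells. Stmn1 lies at 6.07 and 5.48, Tmsb10 at 2.46 and 1.42, and Actb and Coro1a have intervals across 0.

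Another 3 states were looked at in thinned cells, each called at 3 or more UMIs of its list. Interferon response cells numbered 135 (1.49%) in the plasma-negative and 519 (5.32%) in the plasma-positive library. In the plasma-positive library they were higher than the other cells in Tmsb4x (log2 ratio 0.14, 0.10 to 0.18), Cfl1 (0.22, 0.05 to 0.38), Tmsb10 (0.24, 0.00 to 0.46) and Stmn1 (0.85, 0.34 to 1.32). In the plasma-negative library these 4 intervals included 0, over fewer cells, and Coro1a was lower (-0.66, -1.20 to -0.17). In the plasma-positive library Coro1a was level, at 0.00 (-0.21 to 0.21). Over all genes compared, the median log2 ratio was 0.02 (3984 genes, plasma-negative) and -0.08 (3662 genes, plasma-positive). The share of genes with such intervals was not computed, so nothing is read from the number of members. Stmn1 rested on 40 UMIs in the plasma-positive interferon cells, with mitotic cells left in. The differences between the libraries in these values were not tested.

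Chemokine cells, called on genes such as Ccl3 and Ccl4, numbered 86 and 358. Actg1 was higher in them in both libraries, by log2 ratios of 0.53 (0.17 to 0.87) and 0.28 (0.09 to 0.45), over 70 and 266 UMIs. Actb was higher in the plasma-negative library only (0.20, 0.05 to 0.34), and Tmsb4x in the plasma-positive library only (0.09, 0.05 to 0.13). Intervals of the other members included 0. The median over all genes compared was 0.04 and -0.05, and the share of genes with such intervals was not computed. Immediate early response cells, called on genes such as Fos and Jun, numbered 886 and 850, and Tmsb4x was slightly lower in them, by -0.05 and -0.03. In cells outside each of these states, the log2 ratio between the libraries was 0.19 to 0.20 for Tmsb4x and 0.48 to 0.60 for Stmn1, beside 0.20 and 0.54 over all thinned cells. Within the states, with far fewer cells, Tmsb4x was at 0.30 in interferon, 0.25 in chemokine and 0.22 in immediate early cells, each with an interval above 0. Stmn1 was at -0.13 (-0.92 to 0.65) in immediate early cells. In chemokine cells Actb was at 0.00 (-0.16 to 0.16) and Actg1 at -0.13 (-0.52 to 0.27). Coro1a was at 0.65 (0.11 to 1.23) in interferon cells.

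Ratios between the libraries were small across the rest of the cytoskeletal pathway. Of 122 distinct genes found from 10 lists, 77 were at 50 CPM or more; 53 of these were higher in plasma-positive cells, against 39% of all 3540 genes. Intervals lay wholly above 0 for 38 and wholly below 0 for 14 of the 77 genes, against 19.9% and 34.5% of the 3540 genes. These shares depend on level. Of the 763 genes at 200 CPM or more, 50.3% were higher and 40.6% had an interval wholly above 0. The 77 genes were not compared with genes matched in level. The median log2 ratio was 0.05. By the 25% rule 0 were higher and 0 lower, and since 0.367% and 0.169% of the 3540 genes passed it, nothing is read from that count. At a minimum of 10 CPM 1 gene was higher by that rule, Myo5a at 9.61 and 12.3 CPM, against 0.934% of genes at that minimum. The extremes were Myl6, a myosin light chain, at 255 and 293 CPM (0.20), and Cfl2 at -0.21.

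Most genes of the Arp2/3 complex were slightly higher in the plasma-positive library. Of its 9 genes 8 were higher, 7 with an interval wholly above 0 and 0 wholly below. Of all genes at 50 CPM or more, 39% were higher and 19.9% had an interval wholly above 0. At 200 CPM or more these shares were 50.3% and 40.6%. The same shares stand beside the counts of the lists below, and no list was tested. The median log2 ratio of the 9 genes was 0.06, from Arpc1b (427 and 465 CPM, 0.12) to Arpc5l (-0.05). The most abundant was Arpc2, at 511 and 530 CPM. Of 10 genes for the WASP and WAVE proteins that switch the complex on, 5 were higher, with a median of -0.00, from Brk1 (0.11) to Wasl (-0.11). Cyfip1, the most abundant of them, was at 797 and 792 CPM. Of 3 formins, which build unbranched filaments, 1 was higher, Diaph2 at 0.02, and Fmnl1 was lowest at -0.07.

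Among 10 genes for monomer binding and turnover, 7 were higher and the median was 0.10, the highest of the lists. Gmfg, which encodes a factor that takes apart branches, was highest at 115 and 130 CPM (0.17). Of 5 capping genes 4 were higher, from Capzb (0.10) to Tmod3 (-0.05), with Capza2 the most abundant at 909 and 967 CPM. Of 9 bundling and membrane-linking genes 8 were higher, from Lcp1 (0.10) to Rdx (-0.06). Marcks, the most abundant gene of all these lists, was level at 2278 and 2295 CPM. All 6 myosin and tropomyosin genes were higher, from Myl6 to Myh9 (0.05), with Tpm3 the most abundant at 664 and 690 CPM.

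Of 9 tubulin and tubulin-binding genes, the partners of stathmin, 5 were higher, from Tubb5 (0.13) to Map4 (-0.12), and Tuba1b was at 298 and 293 CPM. The transcription factor Srf was low in both libraries, at 8.31 and 9.43 CPM, as were its cofactor genes Mkl1 (13.5 and 14.3 CPM) and Mkl2 (11.4 and 10.8 CPM).

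Counts of 5 members could include or lose reads of near-identical copies. Of the 50-base stretches in the last 500 bases of their transcripts in GENCODE M21, 49.9% for Actg1, 39.3% for Tmsb10, 33.0% for Stmn1, 12.8% for Actb and 3.70% for Cfl1 also occurred in other annotated genes. By name, 4 such genes for Actg1, 4 for Actb and 1 for Tmsb10 were among those listed in the matrices. For Stmn1 and Cfl1 0 were. For Tmsb4x, Pfn1 and Coro1a 0% did. The treatment of such reads and the use of strand in counting were not given in the sources used here, so the effect on the levels of the 5 genes is not known.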

How the data were processed

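Each library came as 1 matrix of UMI counts, whole numbers not normalized, and per the file headers Cell Ranger 6.1.2 made them. The submitters' processing notes name Cell Ranger 3.0.1 instead. Genome build, annotation, cell-calling settings and use of strand were not given in the sources used here. GENCODE M21 on GRCm38 served only for coordinates and for shared transcript sequence.

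The 2 libraries held 34549522 UMIs in 9878 plasma-negative and 42006454 UMIs in 10390 plasma-positive cells. Filters of 500 or more UMIs, 300 or more genes and no more than 10% mitochondrial UMIs removed 18 and 28 cells. Cell barcodes were not used. Scrublet (scanpy 1.11.5) called 0 doublets in either library with its automatic threshold, so it had not worked, and all kept cells entered the main values. An alternative removed the 778 (7.89%) and 859 (8.29%) cells with the highest scores.

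Counts were summed per library, with no pseudocount. With 1 library per group no test was run. Sums carry exact Poisson, shares exact binomial (Clopper-Pearson) and ratios exact conditional binomial intervals at 95% (scipy 1.17.1, numpy 2.4.6, Python 3.11.15), checked on simulated data. UMIs mark molecules, and the intervals cover counting error only.

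Named were all 8 members, the 5 genes most correlated with each member, and, in each pathway list, the most abundant gene and those with the highest and lowest ratio at 50 CPM or more, with any past 25%. Other paralogues, marker and state genes stand beside the members as background. The separate result of 1 pathway list and of 1 marker gene is not reported here. The members and all lists were chosen with earlier results of these data known. Alternatives were the cell filters, doublet removal, TMM scaling (edgeR 4.0.16, R 4.3.3), other totals, each cell weighted alike, thinning to 1000 or 2000 UMIs, the CPM minimum and the rule for mitotic cells.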

Additional observations from a re-analysis of the deposited data

How the results depend on the processing

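Of 153 recomputed values under 17 alternatives, 130 stayed within the counting interval (or, for counts of genes, within 1.5 times), 23 did not and 0 reversed. The median log2 ratio of the 8 members, 0.17, became 0.20 under TMM scaling and 0.13 with each cell thinned to 1000 UMIs. TMM moved the median of all genes by 0.04. Stmn1 over all cells went from 0.51 to 0.41 with each cell thinned to 2000 UMIs, and ranged from 0.41 to 0.55 over its alternatives. Without mitotic cells it ranged from 0.24 (mitotic at 1 or more mitosis genes) to 0.41, and in part of these settings it lay under a 25% difference. Without mitotic and replication cells it ranged from 0.21 to 0.32. There it lay under a 25% difference in every setting except that with each cell weighted alike (0.324). Recomputed ratios of single members other than Stmn1 were above 0 in 62 of 63 cases, and the exception was Coro1a, at -0.00 with each cell thinned to 1000 UMIs. Pathway genes higher by 25% or more numbered 1 in place of 0 at a minimum of 10 CPM. This was Myo5a, at 9.61 and 12.3 CPM (log2 ratio 0.35), named after its values were seen. The causes were not tested. No paired analysis was possible because both libraries stand alone in their group, and for the same reason no replicate could be left out. The depth behind Stmn1, 1226 and 2119 UMIs, limits its values within subgroups.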

Other observations

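A small set of cells held little Tmsb4x. Cells with at most 2 Tmsb4x UMIs after thinning to 1000, a limit chosen after the data were seen, numbered 467 of 9064 (5.15%) in the plasma-negative library and 385 of 9759 (3.95%) in the plasma-positive library. They were shallow, with medians of 1345 and 1364 UMIs before thinning against 3441 and 3913 in the other cells. Cytosolic ribosomal protein genes took 2.80% and 2.58% of their UMIs, against 9.53% and 10.4% in the others, and Malat1 was at 138024 and 133990 CPM against 63512 and 52913. Their median mitochondrial share was 1.54% and 2.64%, against 1.05% and 1.24%. Other members were low in the same cells: Actb was at 1812 and 1821 CPM against 4082 and 4494, and Pfn1 at 238 and 231 CPM against 732 and 793. Coro1a differed least, at 355 and 306 CPM against 387 and 389. The microglia marker Cx3cr1 was at 5946 and 5223 CPM against 6469 and 5661. These cells were chosen by Tmsb4x itself, so the values describe them and no test was made.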
